A study of Homo sapiens with 8 samples.

Results

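Complement factors and regulators were followed in primary effusion lymphoma cells cultured with lenalidomide or with its solvent. The set holds 10 genes chosen by annotated symbol: CFB, CFI, CFD, C3, C1R, C1S, CD46, CD55, CD59 and SERPING1. Of these, 9 had a named probe, with 16 probes in all, and CD46 was not analysed here. A probe was kept if both arrays of any group exceeded background, which 11 of the 16 probes and 7 of the 9 genes did, among 12842 genes tested in all. The set was put together with the lenalidomide changes of these arrays known, the rise of CFB in BC3 among them. Lenalidomide changes of the set are therefore given as descriptions, with the calls of a model fitted to all genes beside them.

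BC3 and BCBL1 are established lines of primary effusion lymphoma, a B-cell lymphoma of body cavities that carries Kaposi sarcoma herpesvirus. Each line was cultured in the same media with 5 µM lenalidomide or with DMSO, and each of the 4 groups held 2 Illumina bead arrays, 8 in all. Lenalidomide redirects the cereblon ubiquitin ligase to the transcription factors IKZF1 and IKZF3. The series text calls the arrays of a group technical replicates, so p-values measure the spread between arrays and not between cultures; each condition rests on the cells of 2 lines. How long the cells were exposed is not stated in the labels.

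Complement is a cascade of plasma proteases and binding proteins that tags cells and microbes for clearance and can pierce their membranes. The classical pathway starts with the proteases C1r and C1s. The alternative pathway amplifies itself when factor D cuts factor B bound to C3b, and factor I stops it by cutting C3b with the help of cofactors such as CD46. CD55 takes convertases apart, CD59 blocks the membrane pore, and the C1 inhibitor SERPING1 shuts off C1r and C1s. The liver makes most of the soluble proteins, many other cells make some of them under cytokines, and the herpesvirus of these lines encodes a complement control protein of its own.

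The bases upstream of CFB, CFI and CFD are shown because CFB and CFI moved with lenalidomide in both lines and CFD differed between the lines. Each run holds the 250 bases before the start of the gene, 5′ to 3′ on the gene's strand, from RefSeq on GRCh38.p14. CFB lies at chr6:31945845-31946094 on the plus strand, CFI at chr4:109802000-109802249 on the minus strand and CFD at chr19:859414-859663 on the plus strand. Capitals mark motif matches, and CFI and CFD hold none.
CFB: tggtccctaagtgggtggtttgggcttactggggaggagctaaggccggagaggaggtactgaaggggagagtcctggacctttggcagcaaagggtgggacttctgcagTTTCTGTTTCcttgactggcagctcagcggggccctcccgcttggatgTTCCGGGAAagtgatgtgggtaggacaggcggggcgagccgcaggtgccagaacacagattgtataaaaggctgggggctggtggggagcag
CFI: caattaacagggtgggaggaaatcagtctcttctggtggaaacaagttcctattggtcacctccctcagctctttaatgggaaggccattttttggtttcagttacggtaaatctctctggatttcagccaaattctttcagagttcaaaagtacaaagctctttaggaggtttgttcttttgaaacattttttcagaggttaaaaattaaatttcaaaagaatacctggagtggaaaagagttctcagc
CFD: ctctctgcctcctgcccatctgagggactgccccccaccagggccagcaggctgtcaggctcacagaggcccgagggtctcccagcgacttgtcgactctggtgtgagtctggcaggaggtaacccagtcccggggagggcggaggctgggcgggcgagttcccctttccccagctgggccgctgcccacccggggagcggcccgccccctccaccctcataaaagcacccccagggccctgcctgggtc

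The motifs were searched on both strands, in windows from 250 bases before to 50 after the start. They were the interferon response core (GAAA and GAAA with any 2 bases between), the STAT site TTCNNNGAA, the AP-1 site TGANTCA, the ETS-IRF composite (GGAA and GAAA with any 2 bases between) and the NF-kB consensus. CFB held the interferon response core from position -140 to -131, written TTTCTGTTTC on the gene's strand because the core lies on the other strand, and the STAT site from -92 to -84, as TTCCGGGAA. The interferon response core was present in 3.57% of all 35116 windows of this length and the STAT site in 7.66%. The AP-1 site was present in 7.71%, the ETS-IRF composite in 2.82% and the NF-kB consensus in 5.91% of them. The interferon response core and the ETS-IRF composite share their GAAA end and can overlap. None of the 5 motifs was found in the windows of CFI, CFD or CD55, and 1 of the 2 C1R windows held the STAT site. Of the 4 CD59 windows, 1 held the AP-1 letters, 2 the STAT and 2 the ETS-IRF letters. C3, C1S and SERPING1 had no window here and were not searched. These matches describe letters, not binding.

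The cells carried the markers of their label. Of 7 plasmablast and effusion lymphoma markers, 6 were above background on all 8 arrays, among them SDC1, IRF4, PRDM1 and XBP1, while TNFRSF8 was above it on none. Of 6 B-cell identity markers with a probe, 0 were above background on all arrays, CD79A and CD79B were above it on 7 of 8 each, and PAX5 on none. Hepatocyte markers, tested because the liver is the main source of complement, had 1 of 10 above background on all arrays (ALB, at 182 to 301), and APOA1, APOH and TF above it on none. SERPINA1 reached 784 and was above background on all 4 BC3 arrays and no BCBL1 array, at least 6.63-fold lower in BCBL1 with DMSO. Summed intensity of the hepatocyte markers was 1792 to 2152 in BC3 with DMSO and 1667 to 1915 with lenalidomide. In BCBL1 it was 1502 to 1563 with DMSO and 1456 to 1498 with lenalidomide. No background was taken off the summed intensities, so each dim probe adds a signal near the background threshold of its array. Summed intensity of the lymphoma markers was 21547 to 24505 and 17912 to 23274 in BC3 with DMSO and with lenalidomide, and 16098 to 16747 and 13603 to 14807 in BCBL1. Median signal per array was 137 to 153, and 46.8% to 50.9% of probes exceeded the background threshold of 138 to 153. Over the 12842 genes tested, r was 0.994 to 0.995 for pairs within a group. It was 0.988 to 0.990 for DMSO against lenalidomide within a line and 0.922 to 0.930 for BC3 against BCBL1. Genes are no independent replicates.

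CFB and CFI rose with lenalidomide in both lines, and no member was called lower. With DMSO, CFB sat just above background in both lines and reached its highest values in BC3 with lenalidomide. CFI was already well above background and was highest in BCBL1 with lenalidomide. In BC3, 2 of the 7 tested members were called higher and 0 lower, beside 3.19% of all genes higher and 1.18% lower, or 4.38% called. In BCBL1, 2 of the 7 were called higher and 0 lower, beside 2.15% higher and 0.755% lower, or 2.9% called. The median log2 change of the 7 was 0.23 in BC3 and 0.12 in BCBL1, beside -0.01 and -0.009 for all genes. On normalized values, the groups of 5 of the 7 did not overlap in each line, beside 48.5% of all genes in BC3 and 44.9% in BCBL1. Nothing is read from these counts, since the set was chosen with the changes known. In bulk RNA, a change in how many cells express a gene and a change in its RNA per cell cannot be told apart.

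Myeloid cells also make complement, and some of their markers moved with lenalidomide in BC3. The summed intensity of the 9 markers, background included, was 1499 to 1678 with DMSO and 2793 to 3401 with lenalidomide in BC3. In BCBL1 it was 1508 to 1562 with DMSO and 1422 to 1472 with lenalidomide. Of the 6 tested, 0 were called higher in BCBL1, beside 2.15% of all genes. The 1 with an unadjusted p under 0.05 by limma there was S100A9. It was higher by 0.53 ± 0.14 (limma adjusted p = 0.0651), with 1 of 2 DMSO arrays above background. In BC3, 3 of the 6 were called higher, beside 3.19% of all genes. Named after their values were seen, these were S100A9, S100A8 and CD68, with log2 changes of 2.92, 2.48 and 0.67 in BC3. Over the 8 arrays S100A9 read 141 to 1104 and S100A8 132 to 686. The other tested myeloid markers were not called in BC3. CD14 had 0.15, MPO had -0.17 near background, and ITGAM was at least 1.04-fold higher. CD68 was above background on all 8 arrays, and LYZ and FCGR1A on none. Some markers of other cell types moved in both lines, as CFB and CFI did, and were also named after their values were seen. Of 6 tested epithelial, stromal and endothelial markers, 2 rose in each line and 0 fell. Of 6 tested plasmablast markers, 1 fell in each line and 0 rose. Of all genes, 4.38% were called in BC3 and 2.9% in BCBL1. The keratin gene KRT8 rose 3.65-fold in BC3 and 2.83-fold in BCBL1, and the T and NK cell marker CD2 rose by 0.62 and 0.93 on the log2 scale. The cadherin gene CDH1 rose by 1.04 on that scale in BC3 and at least 1.24-fold in BCBL1, where neither DMSO array was above background. The plasmablast marker TNFRSF17 fell by 0.78 and 0.64. Other markers of these lists did not follow. CD3E, of T and NK cells, was called lower in BC3 (-0.52) and was not above background in BCBL1. CD7 had 0.05 in BC3 and was at least 1.35-fold lower in BCBL1. The plasmablast marker CD38 had 0.27 and 0.60, and EPCAM -0.06 and 0.32. CD7, CD38 and EPCAM were not called. The part of any of these markers in the CFB and CFI values was not tested.

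**Figure D1:**
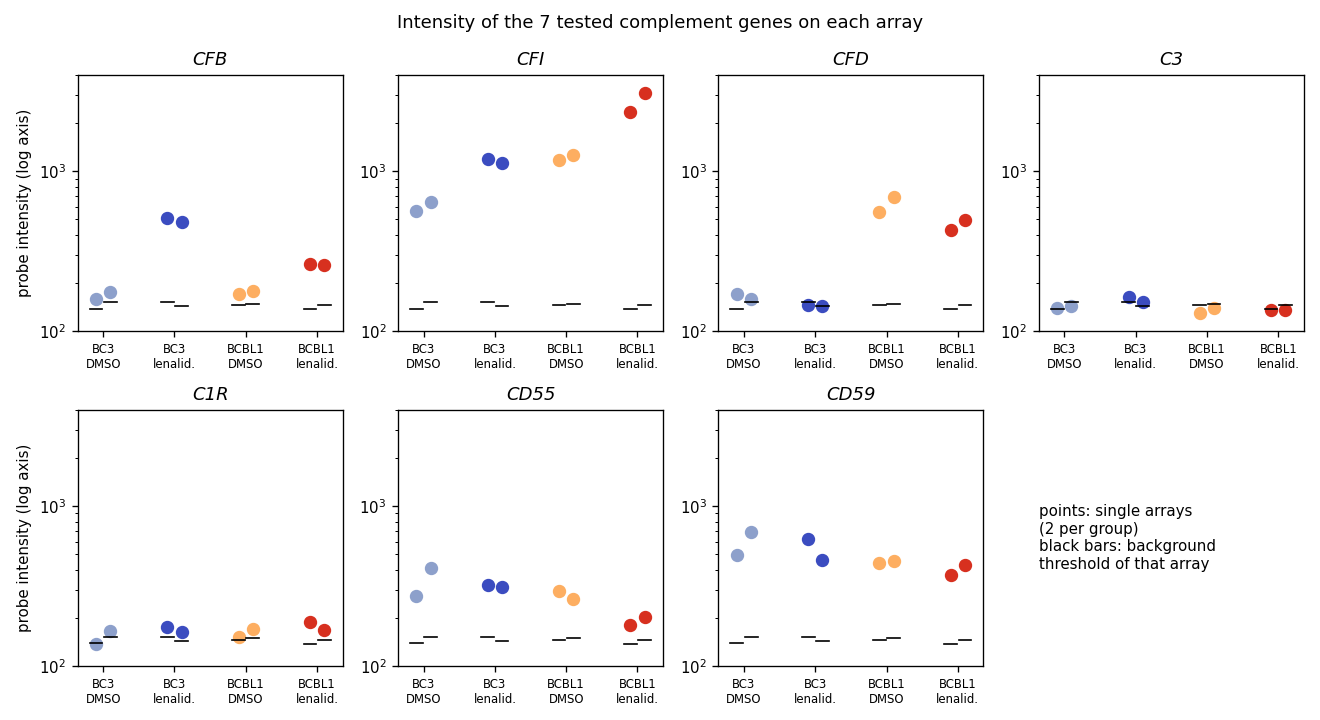
Probe intensity (log axis) of the 7 tested complement genes on single arrays, 2 per group; black bars mark the background threshold of each array. CFB rises from 160 to 179 with DMSO to 486 to 514 in BC3 and 261 to 264 in BCBL1 with lenalidomide, and CFD is 429 to 691 in BCBL1 against 144 to 171 in BC3.

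CFB encodes factor B, which carries the protease of the alternative pathway convertase. Its probe read 160 and 176 on the BC3 arrays with DMSO, where the background thresholds were 139 and 153, and 514 and 486 with lenalidomide. In BCBL1 it read 170.5 and 179 with DMSO and 264 and 261.5 with lenalidomide. The groups did not overlap in either line; the DMSO arrays of the lines lay close together and the lenalidomide arrays did not.

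On the log2 scale after normalization the rise of CFB was 1.99 ± 0.12 in BC3 and 1.02 ± 0.12 in BCBL1 (± is the standard error of the model, n = 2 arrays per group). These are 3.97-fold and 2.03-fold changes; the offset of 50 used in background correction shrinks folds of dim probes. The change was smaller in BCBL1 than in BC3 by 0.97 ± 0.18 on the log2 scale, with a 95% interval of the difference (BCBL1 minus BC3) from -1.35 to -0.59, beside 0.171% of all genes called with a more positive change in BCBL1 and 0.288% with a more negative one, or 0.459% called. CFB was the 1 of 7 members so called. The difference rests on the BC3 change that was known when the set was made, and is given as a description. Its call was kept in 7 of 17 alternatives and left-out arrays, the latter holding it in 1 of 8. The difference itself ran from -1.28 to -0.79 over the 9 alternatives and from -1.08 to -0.86 when single arrays were left out. The change in BC3 ran from 1.53 to 2.92 and that in BCBL1 from 0.74 to 1.64 over the alternatives, highest in each line with the authors' deposited log2 table, and both calls were kept in all 17 settings.

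CFI encodes factor I, the serine protease that inactivates C3b and C4b. Its probe read 567.5 and 639 on the BC3 arrays with DMSO and 1191 and 1128 with lenalidomide. In BCBL1 it read 1172 and 1258 with DMSO and 2339 and 3088 with lenalidomide. The groups did not overlap within a line, and BC3 with lenalidomide lay beside BCBL1 with DMSO. The rise of CFI was 1.08 ± 0.13 in BC3 (2.11-fold) and 1.38 ± 0.13 in BCBL1 (2.61-fold). The difference between these changes was 0.31 ± 0.18, with a 95% interval from -0.09 to 0.71, and was not called. Both CFI rises were called in all 17 settings.

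CFD encodes factor D, the protease that activates factor B, and its values with lenalidomide were lower without passing the threshold. The probe read 171 and 159 in BC3 with DMSO and 145 and 144.0 with lenalidomide, where neither array was above background. In BCBL1 it read 560.0 and 691 with DMSO and 429 and 499.0 with lenalidomide. The groups did not overlap in either line. In BC3 the value with lenalidomide was lower by at least 1.19-fold, a bound since those arrays were not above background, and in BCBL1 the log2 change was -0.27 ± 0.14; neither was called.

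C3, the protein on which all pathways converge, was near background. Its brighter probe read 140.3 and 145 in BC3 with DMSO and 164 and 152 with lenalidomide, against 130.0 to 141 over the 4 arrays of BCBL1. It was above background on both arrays of BC3 with lenalidomide, on 1 with DMSO and on none of BCBL1. The log2 change was 0.23 ± 0.12 in BC3 and 0.12 ± 0.12 in BCBL1, and neither was called. The other C3 probe was above background on no array, at 118 to 137.

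The classical pathway proteases were near background as well. C1R had 4 probes that passed the filter. The brightest read 138 and 166 in BC3 with DMSO, 176 and 162 with lenalidomide, 152.5 and 171 in BCBL1 with DMSO and 189 and 167.5 with lenalidomide. Its log2 change was 0.24 ± 0.15 in BC3 and 0.36 ± 0.15 in BCBL1, not called in either line. The other 3 C1R probes disagreed in sign in BC3, with log2 changes of 0.19, -0.21 and 0.05. C1S and the C1 inhibitor SERPING1 had 2 probes each and passed the filter with none. Together with the dim C3 probe these 5 probes lay between 113 and 161 and were above background in 3 of 40 readings. A fall of C1S or SERPING1 was not detectable at this signal, and with lenalidomide their probes read at most 158.

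CD55, the decay accelerating factor, had its lowest readings in BCBL1 with lenalidomide. The probe read 275.0 and 408.0 in BC3 with DMSO and 323 and 314 with lenalidomide, which overlap. In BCBL1 it read 293 and 264.5 with DMSO and 179.6 and 204 with lenalidomide, which do not overlap. The log2 change was -0.09 ± 0.17 in BC3 and -0.60 ± 0.17 in BCBL1; neither was called, and the BCBL1 value ran from -0.90 to -0.45 over the alternatives without a call. The difference between the lines' changes was -0.51 ± 0.24, with a 95% interval from -1.02 to 0.001.

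CD59, the inhibitor of the membrane pore, was not called in either line. Its brighter probe read 496 and 689 in BC3 with DMSO and 625 and 458 with lenalidomide. In BCBL1 it read 442 and 454 with DMSO and 374 and 429 with lenalidomide. These readings overlap in BC3 and not in BCBL1, while the normalized values overlap in both lines. The log2 change was -0.12 ± 0.14 in BC3 and -0.001 ± 0.14 in BCBL1, with 95% intervals from -0.42 to 0.17 and from -0.30 to 0.30. The dimmer CD59 probe gave 0.08 and 0.20, and was not called either.

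**Figure D2:**
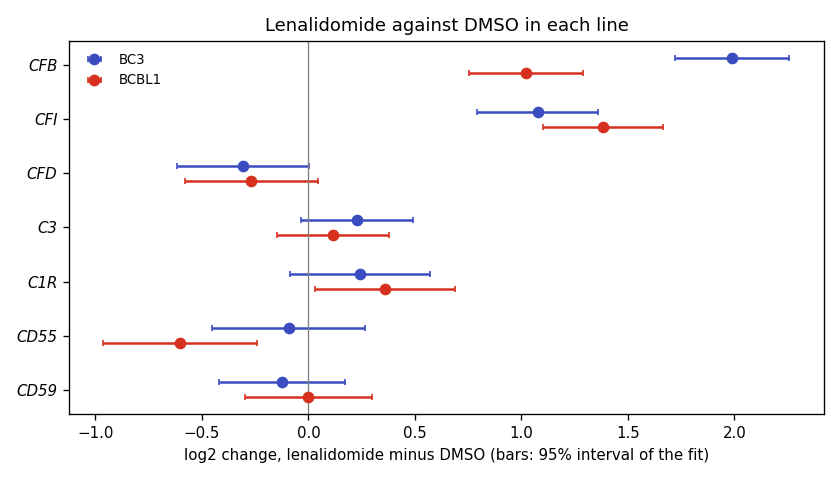
Log2 change with lenalidomide of the 7 tested complement genes in BC3 (blue) and BCBL1 (red); points are model estimates from 2 arrays per group and bars their 95% intervals. CFB (1.99 and 1.02) and CFI (1.08 and 1.38) stand to the right of 0 in both lines, and CD55 is at -0.60 in BCBL1.

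CFD and CFI were higher in BCBL1 than in BC3, with DMSO and with lenalidomide. With DMSO, 2 of the 7 tested members were called higher in BCBL1 than in BC3, CFD and CFI, and 0 lower, beside 20.1% of all genes higher and 20.5% lower, or 40.6% called. CFD was higher by 2.45 ± 0.14 on the log2 scale, a 5.45-fold difference (limma adjusted p = 2.10e-08). CFI was higher by 1.15 ± 0.13, or 2.22-fold (limma adjusted p = 1.26e-05). CFB differed by 0.10 ± 0.12, with a 95% interval from -0.17 to 0.37 (limma adjusted p = 0.566). On normalized values the lines did not overlap for 5 of the 7, beside 69.9% of all genes. Summed intensity of 8 epithelial, stromal and endothelial markers, background included, was 7111 to 9045 in BC3 and 1270 to 1489 in BCBL1. Of the 8, 2 were above background on all arrays and VWF on none. EPCAM gave the sum in BC3 its size. EPCAM, which reached 7257, made up most of it, with a log2 difference of -6.17 with DMSO. CDH1 was also called lower with DMSO, by at least 3.11-fold, with neither BCBL1 array above background. KRT8, KRT18 and COL1A2 differed by 0.15, 0.04 and 0.28 and were not called. Their part in these differences was not tested.

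The membrane regulators CD55 and CD59 (brighter probe) had lower values in BCBL1 with DMSO and were not called. CD59 differed by -0.34 ± 0.14 (limma adjusted p = 0.0652) and its dimmer probe by -0.009. CD55 differed by -0.26 ± 0.17 (limma adjusted p = 0.238). Without array a of BC3 with DMSO, CD55 and CD59 were both called, at -0.51 (adjusted p = 0.0451 and 0.0271), with the lone array of that group assumed to vary like the others; that array had the lower reading of each pair in raw intensity. CD59 was also called without background correction (-0.30) and with cyclic loess (-0.39). C3 and the brightest C1R probe differed by -0.16 ± 0.12 and 0.15 ± 0.15 and were not called. The other C1R probes differed by 0.43, -0.27 and 0.05. The first of them passed the threshold in the fit over probes, with both BCBL1 arrays and neither BC3 array above background. It was kept only through BCBL1, where it was higher, so that call is no test of the difference.

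With lenalidomide, 2 of the 7 were called higher in BCBL1 than in BC3 and 2 lower, beside 20.5% of all genes higher and 21.3% lower, or 41.8% called. The lines did not overlap for 7 of the 7, beside 69.4% of all genes. The DMSO and lenalidomide comparisons of the lines share no array. CFD was at least 5.40-fold higher in BCBL1, since BC3 was not above background, with limma adjusted p = 1.69e-08. CFI was higher by 1.45 ± 0.13, or 2.74-fold (limma adjusted p = 1.29e-06). CFB was lower in BCBL1, with a log2 difference of -0.87 ± 0.12. That difference uses the BC3 lenalidomide arrays, whose CFB rise was known when the set was made, so it is given as a description. CD55 was lower too, with a difference of -0.77 ± 0.17 (limma adjusted p = 0.00220). C3, C1R and CD59 were not called as fitted. C3 was at least 1.11-fold lower in BCBL1, a bound since no BCBL1 array was above background. It passed the threshold with the authors' deposited log2 table. Its probe was kept only through BC3 with lenalidomide, where it was highest, so that call is no test of the difference. Without array b of BCBL1 with lenalidomide, the brightest C1R probe differed by 0.49.

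Over both lines together, 2 of the 7 members were called higher with lenalidomide and 0 lower, beside 4.86% of all genes higher and 2.41% lower, or 7.27% called. CFB had a log2 change of 1.51 and CFI of 1.23. With the line in place of the array as the replicate (2 lines), CFB and CFI were called, beside 1.84% of all genes. That fit had 1 residual and 8.91 prior degrees of freedom, so its spread is mostly borrowed from other genes. It uses the same arrays and is given as a description.

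**Figure D3:**
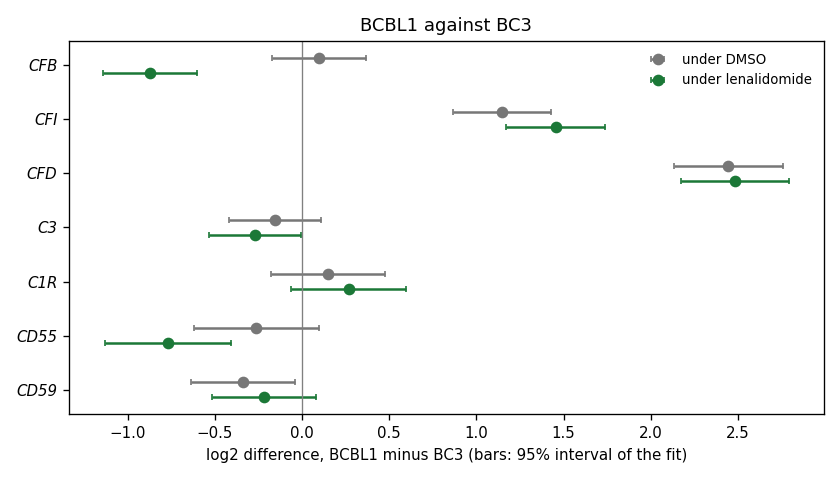
Log2 difference between BCBL1 and BC3 for the 7 tested complement genes, with DMSO (grey) and with lenalidomide (green); points are model estimates from 2 arrays per group and bars their 95% intervals. Fitted values of CFD are 2.45 and 2.48 (the latter against BC3 arrays not above background), those of CFI 1.15 and 1.45, and CFB goes from 0.10 with DMSO to -0.87 with lenalidomide.

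The other genes of the cascade were mostly at background. Of 55 listed, 50 had a named probe and 18 were tested. In BC3, 2 rose and 0 fell with lenalidomide, beside 3.19% and 1.18% of all genes, with a median log2 change of 0.08. C5, the source of the anaphylatoxin C5a and the starter of the membrane attack complex, rose by 0.64 ± 0.11 (limma adjusted p = 0.00582). C3AR1, the receptor for C3a, rose by 0.61 ± 0.15. In BCBL1, 1 rose and 0 fell, beside 2.15% and 0.755% of all genes, with a median of 0.05. C3AR1 rose there by 0.75 ± 0.15. C5 had 0.27 in BCBL1. C3AR1 was above background on 1 of 2 DMSO arrays in each line and on both with lenalidomide. It was thus kept only through the lenalidomide groups, where it was higher, so its rises and calls are descriptions and no test. The C3AR1 call was kept in 9 of 16 settings in BC3 and 14 of 16 in BCBL1, and that of C5 in 15 of 17. In this list limma called 0 genes for a difference of the change between lines, beside 0.459% of all genes. Of the listed genes, 5 had an unadjusted limma p under 0.05.

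**Figure D4:**
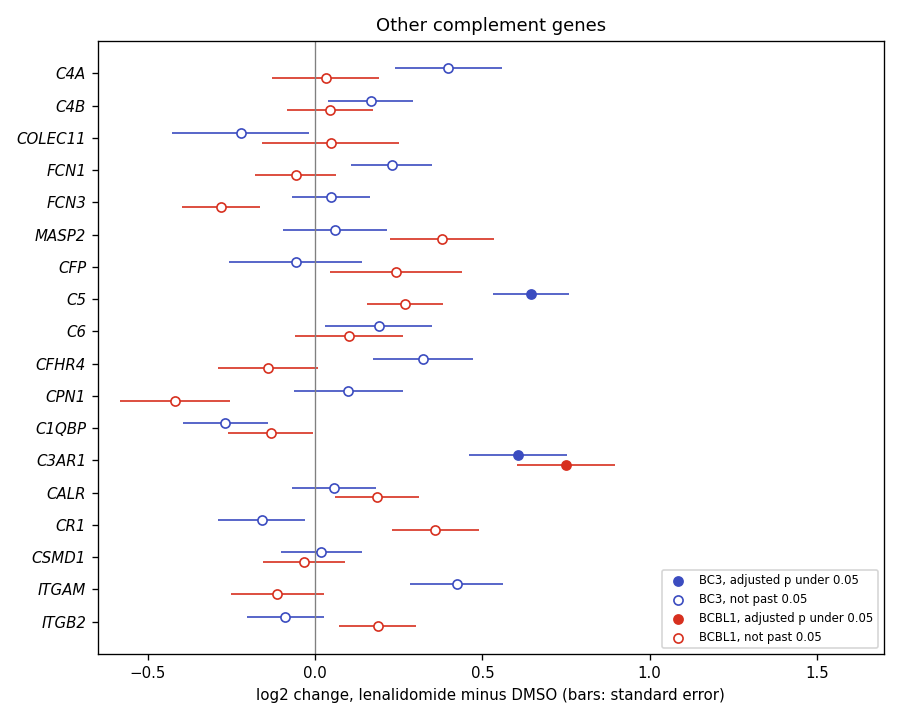
Log2 change with lenalidomide of the 18 tested genes of the cascade outside the 10, in BC3 (blue) and BCBL1 (red); bars are standard errors from 2 arrays per group and filled points have adjusted p under 0.05. C3AR1 is filled in both lines (0.61 and 0.75) and C5 in BC3 (0.64). C3AR1 was kept only through its lenalidomide groups, so its filled points are descriptions.

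Between the lines with DMSO, 3 of these 18 genes were called higher in BCBL1 and 3 lower, beside 20.1% and 20.5% of all genes. CFHR4 was higher by 1.02 ± 0.15 and C5 by 0.45 ± 0.11, with limma's adjusted p at 1.13e-04 and 0.00644. CFHR4 belongs to a family of similar genes that a probe may not tell apart. The third call, of the integrin gene ITGAM, has no size that can be read, since the gene was above background on 1 of the 4 DMSO arrays; it was kept in 7 of 16 settings. CSMD1 was lower, with a difference of -1.21 ± 0.12, as were the chaperone gene CALR at -0.82 ± 0.13 and C4B at -0.48 ± 0.13, with limma's adjusted p from 3.91e-06 to 0.00858. C4A and C4B are near-identical copies, so the C4B value may hold both. CSMD1 and C4B were above background on 1 of the 2 BCBL1 arrays. With lenalidomide 2 were higher and 5 lower, beside 20.5% and 21.3% of all genes; the 6 with the largest differences were CSMD1, CALR, C4B, CFHR4, C4A and CR1. CSMD1 was at least 2.31-fold lower, CALR differed by -0.69, C4B by -0.61, CFHR4 by 0.56, C4A by -0.55, and CR1 was at least 1.11-fold higher.

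Genes whose products drive cytokine-induced transcription, complement genes included, were followed as a list. Of 20 listed, 18 were tested; in BC3 CEBPD rose by 0.62 ± 0.12 (limma adjusted p = 0.0117) and the NF-kB subunit gene RELB fell by 0.52 ± 0.13 (limma adjusted p = 0.0381). In BCBL1 4 rose and 0 fell, beside 2.15% of all genes called higher and 0.755% lower (3.19% and 1.18% in BC3). The interferon-response factor gene IRF9 rose by 0.73 ± 0.14, CEBPD by 0.72 ± 0.12, IRF1 by 0.61 ± 0.12 and the NF-kB inhibitor gene NFKBIA by 0.52 ± 0.13, with limma's adjusted p from 0.00636 to 0.0466. IRF1 and IRF9 had 0.30 and 0.47 in BC3. The calls of RELB and NFKBIA were kept in 8 and 4 of 17 settings, those of CEBPD in 11 (BC3) and 13 (BCBL1), that of IRF9 in 11 and that of IRF1 in 9. The median log2 change of the list was 0.06 in BC3 and 0.13 in BCBL1. With DMSO, 3 of the 18 were higher in BCBL1 and 8 lower, beside 20.1% and 20.5% of all genes, led by NFKBIA (-2.75), IRF9 (-2.48), CEBPD (-2.45), IL6 (-1.28), IRF1 (-1.18) and, higher in BCBL1, STAT3 (0.96). With lenalidomide 3 were higher and 6 lower, beside 20.5% and 21.3% of all genes, led by CEBPD (-2.35), IRF9 (-2.22), NFKBIA (-2.01), IL6 (-1.60), IL6R (1.20) and STAT3 (0.98).

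CD55 and CD59 reach the cell surface on a GPI anchor. Of 23 genes of anchor synthesis, all tested, 0 rose and 1 fell in BC3, beside 3.19% and 1.18% of all genes. PGAP2, which remodels the anchor's lipid, fell by 0.58 ± 0.11 (limma adjusted p = 0.0100). In BCBL1 limma called 0, beside 2.9% of all genes, with 4 at an unadjusted p under 0.05. The call of PGAP2 was kept in 12 of 17 settings. The median log2 change of the list was -0.06 in BC3 and -0.03 in BCBL1. With DMSO, 3 were higher in BCBL1 than in BC3 and 4 lower, beside 20.1% and 20.5% of all genes, led by PIGA (-0.94), PIGN (-0.72), PIGM (0.65), PIGQ (-0.55), PIGV (-0.54) and PIGS (0.48). PIGM ran from 0.19 to 1.12 without single arrays, lowest without array b of BCBL1 with DMSO, and kept its call in 12 of 17 settings with DMSO and 9 with lenalidomide. With lenalidomide, 3 were higher and 3 lower, beside 20.5% and 21.3% of all genes: PIGM (0.69), PGAP2 (0.69) and PIGS (0.47) against PIGA (-0.92), PIGN (-0.67) and PIGX (-0.45).

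The genes whose values were most like those of CFB over the 8 arrays were OAS1 (r = 0.992), MGST3 (r = 0.987) and FTO (r = 0.985). OAS1, an interferon-induced antiviral enzyme, had log2 changes with lenalidomide of 1.26 in BC3 and 0.57 in BCBL1. MGST3 had 0.82 and 0.31, and FTO 0.60 and 0.35. For CFI they were TRIM6 (r = 0.994), MTMR11 (r = 0.990) and BHLHE40 (r = 0.988). TRIM6 had log2 changes of 1.05 and 1.46 and was 1.38 higher in BCBL1 with DMSO. MTMR11 had changes of 1.26 and 1.63, and BHLHE40 of 0.71 and 0.84. These correlations are descriptions over 8 arrays of 4 groups, which share line and treatment.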

How the data were processed

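Total RNA of the lines BC3 and BCBL1, labelled with Cy3, was measured on 8 Illumina 1-colour bead arrays. The authors deposited linear probe intensity values, not normalized per the file headers, with 47323 probes and no detection p-values. A second deposited table held log2 values between 4.25 and 15.52; the submitters' processing notes name limma. Which function and offset made it is not stated there.

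In R 4.3.3, limma 3.58.1 background-corrected the intensities (normexp, offset 50) and quantile-normalized them before the log2 step. The background of an array was modelled from the mode of its signals under the 75th percentile and the spread (SD) of signals below that mode, with a one-sided threshold at 0.05. The 1 probe listed at 0 was dropped. The filter kept 24478 probes that exceeded background in both arrays of any group. A single gene symbol was known for 30113 probes, several for 8 and none here for 17201, and 30074 symbols were found in RefSeq by gene identifier. The brightest kept probe stood for its gene. limma fitted a mean per group over all 8 arrays (4 residual and 8.74 prior degrees of freedom), with Benjamini-Hochberg adjustment over 12842 genes and a threshold of 0.05. A bound (at least N-fold) takes, for the dim group, the higher of the probe's value and the lowest value above background on each array. The number of arrays limits the precision.

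Intensity columns carry no replicate number, so the letters a and b follow the order of the table. By replicate number, deviations in the deposited log2 table correlated between groups with r from -0.08 to 0.05, so the numbers were not taken as pairs. Named were all members, up to 6 called genes per list and comparison, and the 3 genes most correlated with each called member. Members and lists were chosen with earlier results of these data known. The model was tested on simulated data.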

Additional observations from a re-analysis of the deposited data

Results flagged for a closer look

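The change of CFB with lenalidomide differed between the lines: the change in BCBL1 minus that in BC3 was -0.97 on the log2 scale, past the threshold of the model, with both changes above 0. The BC3 change was known when the gene was chosen, so the difference is a description and no independent test. The call was kept in 7 of 17 alternatives and left-out arrays, and in 1 of the 8 runs that left out an array. CFB had read close together in the lines with DMSO, at 160 to 179, and apart with lenalidomide, at 486 to 514 in BC3 and 261 to 264 in BCBL1.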

How the results depend on the processing

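For the 7 tested members and 5 comparisons, 563 of 580 values recomputed under other settings or without an array stayed on their side of the threshold, 0 turned a called direction, and 17 gained or lost a call. In the lenalidomide comparison of each line 2 members were called in every setting run (CFB and CFI), whereas the calls over all genes ran from 206 to 693 in BC3 (562 as reported) and from 144 to 469 in BCBL1 (373 as reported). The lowest were 206 without array b of BC3 with DMSO and, in BCBL1, 144 with the replicate block; without array b of BCBL1 with lenalidomide it was 151. The difference of the lenalidomide effect between lines, with CFB as its 1 called member, had 0 called with an offset of 16, 0 with the authors' deposited log2 table, 0 in that table with the replicate number as a block, and 0 to 1 without single arrays (1 only without array a of BC3 with lenalidomide). The calls over all genes for that difference ran from 9 to 74 (59 as reported). BCBL1 against BC3 with DMSO had 2 called as reported, 1 with the strict filter, which leaves CFD untested, 3 with no background correction and 3 with cyclic loess (CD59 added in each), and 2 to 4 without single arrays. With lenalidomide the lines differed in 4 members as reported, in 3 to 5 over the settings and in 4 to 5 without single arrays. The cause of the other moves was not tested. With median scaling, all genes together had a median change of -0.11 in BCBL1, and the CD59 value there ran from -0.12 to 0.10 over the settings. With the cell line as the replicate (limma on group means, 2 lines), CFB changed by 1.51 ± 0.19 and CFI by 1.23 ± 0.12. The same 2 members were called as over the arrays, beside 1.84% of all genes, on 1 residual degree of freedom. The block changed no member count from the same table without it. C3, C1R, C1S and SERPING1 lay near background, where a fall cannot be seen.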
